A study of Mus musculus with 8 samples.

Results

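Accessible chromatin was described at 10 epithelial gene loci during reprogramming of mouse fibroblasts, 10 of the 21853 protein-coding genes considered. They were Cdh1 and Epcam (adhesion), Ocln, Cldn3, Cldn4 and Cldn7 (tight junctions), Krt8 and Krt18 (keratins), and Esrp1 and Grhl2 (regulators). Each locus was the gene body with 50 kb to each side in the mouse genome build mm10. In these windows lay 191 of the 176445 peaks of 4 lists, which merged into 87 of 101701 regions. Krt8 and Krt18 share most of their windows, as do Cldn3 and Cldn4, so these pairs are not separate observations.

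The peaks came from ATAC-seq, in which a transposase cuts accessible DNA, so that stretches rich in reads mark open chromatin. There were 8 libraries in 4 groups of 2, and 1 deposited peak list for each group. The first group was mouse embryonic fibroblasts (MEFs), which the study took from embryos. At day 5 and day 10 after the first infection, the other fibroblasts carried retroviruses for Pou5f1 (OCT4), Sox2, Klf4 and Myc, the reprogramming factors abbreviated OSKM, together with a FLAG control vector. They were kept in medium for embryonic stem cells with 50 µg/ml of vitamin C. The fourth group was embryonic stem cells (ESCs). MEFs, both OSKM groups and ESC replicate 2 were labelled C57BL/6J-OG2, a strain with a reporter driven by Pou5f1 sequence, and ESC replicate 1 was labelled C57Bl6J. All samples were labelled wild type. The labels place the ESCs on feeder fibroblasts, whereas the methods describe gelatin and 2i/L medium. Cell state, medium and strain thus cannot be told apart between ESCs and the other groups, and a bulk culture at day 5 or day 10 mixes cells at different stages. Between MEFs and the OSKM groups, viruses, medium, vitamin C and days in culture cannot be told apart either.

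Fibroblasts that are reprogrammed must give up a mesenchymal form and become epithelial, a step known as the mesenchymal to epithelial transition, before they reach pluripotency. Epithelial cells hold to their neighbours by adherens junctions, whose main component is E-cadherin, and seal the space between them by tight junctions made of claudins and occludin. Keratins 8 and 18 pair to form the filaments of simple epithelia. Repressors of the SNAI and ZEB families bind E-box sequences and are known to silence Cdh1 in mesenchymal cells, while GRHL2 activates junction genes and ESRP1 directs epithelial splicing.

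The MEF list had 56514 peaks, the day 5 list 36219, the day 10 list 35226 and the ESC list 48486, and the read depth behind them is unknown. A missing peak therefore says only that no peak was listed, and with 1 list a group no difference between groups could be tested. Marker genes were set beside the labels, but they were chosen with earlier results of these data known, so they are no independent check. All 5 ESC markers (Dppa4, Esrrb, Nanog, Tfcp2l1 and Zfp42) had a peak over a start site in ESCs, against 2 of 5 in MEFs and 1 of 5 on each OSKM day. All 5 fibroblast markers (Fbn1, Pdgfrb, Prrx1, Thy1 and Twist2) had one in MEFs, 4 on day 5, 2 on day 10 and 1, Fbn1, in ESCs. Across all protein-coding genes 58.6% had one in MEFs and 53.8% in ESCs. Of the wider lists described further on, 7 of 10 naive pluripotency genes and 7 of 14 mesenchymal genes had one in ESCs.

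Promoter sequences are given first. RefSeq promoters (GRCm38.p6) were matched for 7 of the 10 genes, with 9 promoters of 300 bases, from 250 bases before to 50 after the start. Of these, 3 are shown as examples, as far as they lie before the annotated gene. These 3 hold the E-box CACCTG, alone or with a KLF-type match (CCACNCCC, where N is any base), as do others of the 9. Both motifs were searched on both strands, neither contains the other, and capitals mark their matches. Matches to other motifs are not marked. The Epcam promoter is chr17:87635729-87635978 on the plus strand, the Cldn4 promoter chr5:134946935-134947184 on the minus strand, and the Krt18 promoter chr15:102027966-102028179 on the plus strand. The Epcam stretch lay under no peak of any list. The Cldn4 stretch lay wholly under the ESC peak and partly under the MEF and day 10 peaks. At Krt18 the ESC peak began at 102028074, after the E-box and the first KLF-type match, and no other list had a peak there.
Epcam promoter: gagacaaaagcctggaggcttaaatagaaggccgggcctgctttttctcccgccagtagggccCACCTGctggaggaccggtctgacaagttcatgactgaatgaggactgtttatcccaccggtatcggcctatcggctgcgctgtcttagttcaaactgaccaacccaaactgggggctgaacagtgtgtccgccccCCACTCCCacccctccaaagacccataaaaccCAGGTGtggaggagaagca
Cldn4 promoter: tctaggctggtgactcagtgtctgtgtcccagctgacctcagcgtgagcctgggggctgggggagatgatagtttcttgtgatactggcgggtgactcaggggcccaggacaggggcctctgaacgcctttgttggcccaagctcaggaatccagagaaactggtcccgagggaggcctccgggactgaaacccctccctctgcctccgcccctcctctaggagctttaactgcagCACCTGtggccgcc
Krt18 promoter: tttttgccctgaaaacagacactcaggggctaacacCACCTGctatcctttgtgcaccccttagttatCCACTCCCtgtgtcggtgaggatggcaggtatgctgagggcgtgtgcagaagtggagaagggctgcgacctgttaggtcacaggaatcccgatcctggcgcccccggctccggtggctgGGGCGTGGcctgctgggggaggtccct

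The E-box was the feature these promoters shared. It was present in 8 of the 9 promoters (88.9%) and in at least 1 promoter of each of the 7 genes, whereas 19.7% of all 21263 promoters held it. Counted from the RefSeq start, it began at -187 and -19 in Epcam, at -14 and 12 in Cldn4, at -214 in Krt18 and at -111 in Krt8. Among 30 promoters of the other epithelial genes described further on, 20 (66.7%) held it, against 1 of 13 promoters (7.69%) of mesenchymal genes. It was not limited to epithelial genes, since 6 of 10 promoters of naive pluripotency genes held it as well. The KLF-type letters were found in 4 of the 9 promoters (44.4%, against 19.4% of all), those of Epcam, Cldn3 and Krt18 and 1 of the Ocln promoters. They were also in 11 of 30 other epithelial, 5 of 13 mesenchymal and 6 of 10 naive pluripotency promoters. The excess over all promoters was thus not particular to epithelial genes. None of the 9 promoters held the GRHL-type letters AACCNGTT or the octamer ATGCAAAT, which 1.95% and 1.66% of all promoters held, too few for 9 promoters to show a difference. A match is a run of letters and not a bound site, and base composition was not matched. The paired promoters of Ocln overlap and have an E-box in common, which was counted for both.

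The start sites were compared first, to see in which list each gene had a peak over the first base of a protein-coding transcript. Of the 10 genes, 4 had such a peak in MEFs, 3 on day 5, 4 on day 10 and 7 in ESCs. Across all protein-coding genes the shares were 58.6% in MEFs, 50.6% on day 5, 54.7% on day 10 and 53.8% in ESCs. Only Ocln and Cldn3 had one in all 4 lists, where 45.2% of all genes did. Cdh1, Cldn7, Krt18 and Grhl2 had none in MEFs and one in ESCs, which is 4 of 10 against 3.32% of all genes. Epcam was the 1 gene with a peak in MEFs and none in ESCs (8.16% of all genes). Krt8 and Esrp1 had none in any list (36.9% of all genes). The counts moved with list length. When each list was reduced to its 35226 highest-scoring peaks, the length of the shortest, 1 gene had a start-site peak in MEFs, 2 on day 5, 4 on day 10 and 3 in ESCs, so that day 10 was highest. The day 10 list is the shortest and lost no peak in this step, while the other lists lost their weakest peaks. The genes without one in MEFs and with one in ESCs were then Cdh1 and Ocln, 2 of 10 against 4.03% of all genes.

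**Figure D1:**
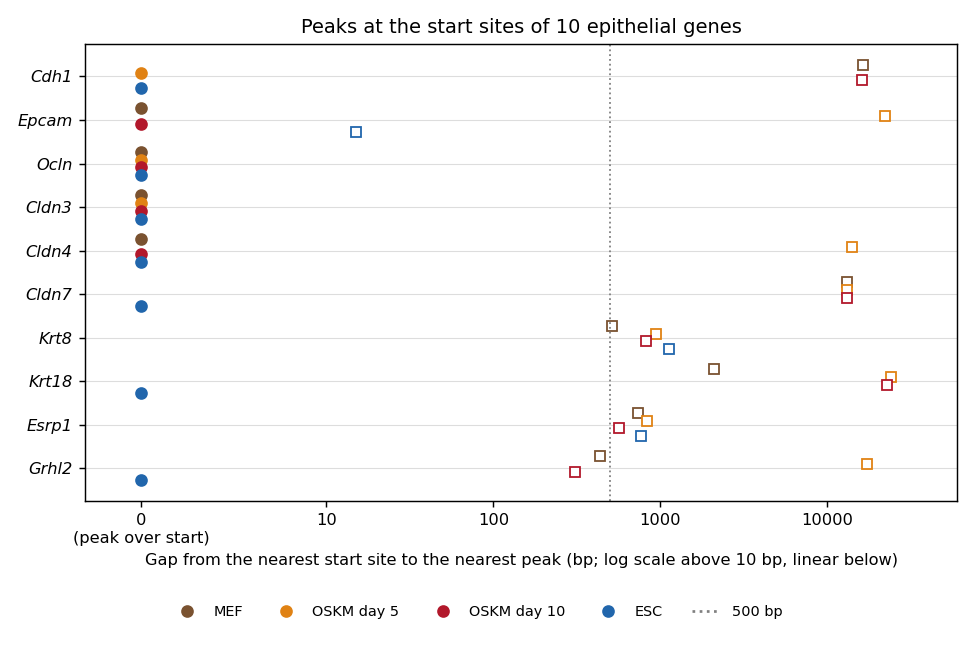
For each of the 10 genes, the gap in bp from the nearest protein-coding start site to the nearest peak of each list, with filled circles at 0 for a peak over the start and open squares for a gap. Krt8 and Esrp1 have gaps between 515 and 1128 bp in all 4 lists, the ESC gap of Epcam is 15 bp, and the MEF and day 10 gaps of Grhl2 lie within the dotted line at 500 bp.

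Cdh1 encodes E-cadherin (ENSMUSG00000000303.12, chromosome 8, 106603351 to 106670246, plus strand). It was the 1 gene of the 4 that gained a start-site peak between MEFs and ESCs for which an OSKM list also held one. At day 5 the peak ran from -0.1 to 0.4 kb around the start with a fold enrichment of 3.16 over background, and in ESCs from -0.1 to 0.7 kb with 2.87. In MEFs the nearest peak was 16286 bp away and at day 10 it was 16135 bp away, so the start-site peak of day 5 was not listed at day 10. Both peaks were weak within their lists, at rank 29998 of 36219 by score at day 5 and 31866 of 48486 in ESCs.

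The Cdh1 window had 14 regions, with 9 MEF, 6 day 5, 5 day 10 and 8 ESC peaks. A region was called common when MEFs and ESCs both had a peak, MEF-specific or ESC-specific when 1 of them did, and transient when only OSKM lists did. Of the 14 regions 5 were ESC-specific, and 3 of these 5 had a peak on an OSKM day already, the most for any of the 10 genes. They were the start site, a region at 28.2 to 30.2 kb inside an intron (day 5, day 10 and ESCs) and a region at 41.0 to 42.0 kb in an intron (day 5 and ESCs). The other 2 ESC-specific regions, at -30.2 and 5.5 kb, were listed in ESCs alone. Within the gene body MEFs had peaks at 22.7, 43.8 and 52.5 kb, and none of the other lists had a peak there. Thus the fibroblasts had accessible sites inside Cdh1, at positions other than those of the OSKM cells and ESCs, and 1 intron region at 14.7 to 16.7 kb had a peak in MEFs, day 10 and ESCs.

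The intron region at 28.2 to 30.2 kb contains the site that the study's primer table names as a Cdh1 enhancer. Its amplicon of 172 bp lies at chr8:106632777-106632948 and is shown because it can be placed against each list, with both primers in capitals, the second as its reverse complement.
Cdh1 enhancer amplicon: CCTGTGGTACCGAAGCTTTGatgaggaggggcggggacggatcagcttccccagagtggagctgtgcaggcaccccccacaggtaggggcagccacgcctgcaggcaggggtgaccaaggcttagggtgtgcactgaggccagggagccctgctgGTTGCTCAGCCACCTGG
All 172 bp lay under the ESC peak, which ran from 28.9 to 30.2 kb. The day 10 peak, from 28.2 to 29.4 kb, ended 60 bp before the amplicon, and the day 5 peak, from 28.4 to 28.7 kb, ended 702 bp before it. The nearest MEF peak was 6129 bp away. The merged region was thus listed from day 5 on, while the amplified bases themselves were under a peak in ESCs only. The 3 peaks count as 1 region because the day 10 peak overlaps both others. The E-box CACCTG occurs in the second primer. Of the amplicons the study placed at the Cdh1 start, that at -190 to -66 bp had 15 bp under the ESC peak and that at 650 to 838 bp had 96 bp under it, and neither reached the day 5 peak.

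**Figure D2:**
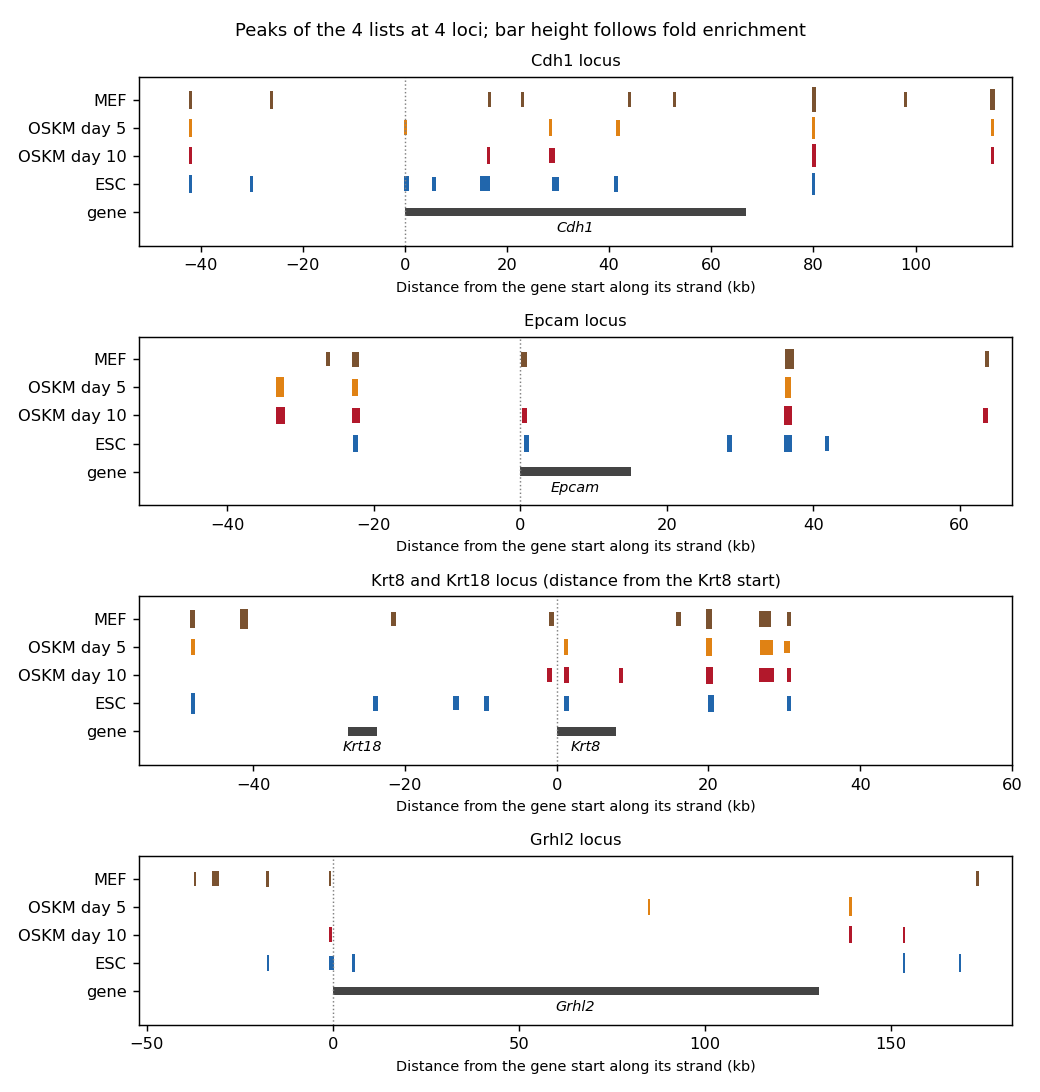
Peaks of MEFs, OSKM day 5, OSKM day 10 and ESCs (rows) at the Cdh1, Epcam, Krt8 with Krt18 and Grhl2 loci, by distance in kb from the gene start along its strand, with bar height following fold enrichment, peaks narrower than 0.6 kb drawn at that width and genes as dark bars. At Cdh1 the day 5, day 10 and ESC rows each have a peak in the region at 28.2 to 30.2 kb, and MEFs have none. At Epcam the day 5 and day 10 rows share a peak at -33.4 to -32.1 kb that MEFs and ESCs lack.

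Epcam encodes an adhesion molecule of epithelial and pluripotent cells (ENSMUSG00000045394.9, chromosome 17, 87635979 to 87651129, plus strand). Its start-site peaks in MEFs, at 0.1 to 0.9 kb with a fold enrichment of 3.04, and at day 10, at 0.3 to 1.0 kb with 2.64, covered an internal start site of a shorter transcript. The ESC peak, at 0.7 to 1.0 kb with a fold enrichment of 3.95, began 15 bp after that internal start. At day 5 the nearest peak was 22183 bp away. The lists other than day 5 thus had a peak within the first kb of Epcam, no list had one over the first annotated base, and the call of a peak lost in ESCs rests on 15 bp. The study's amplicon at the Epcam start, at -133 to 19 bp, lay under no peak, with a gap of 44 bp to the MEF peak, 266 bp to that of day 10 and 699 bp to that of ESCs. Within 500 bp of a start site, Epcam was called in MEFs, at day 10 and in ESCs.

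The Epcam window had 5 peaks in each list except that of day 5, which had 3. Its strongest change was a transient region at -33.4 to -32.1 kb from the start. There day 5 had a fold enrichment of 5.07, at rank 1854 of 36219, and day 10 had 4.12, at rank 3870 of 35226, and neither MEFs nor ESCs had a peak. The 200 bp around the middle of the stretch under both peaks, chr17:87603058-87603257, hold the KLF-type letters in capitals and are shown because no other transient region near the 10 genes ranked as high in its list.
Epcam upstream region: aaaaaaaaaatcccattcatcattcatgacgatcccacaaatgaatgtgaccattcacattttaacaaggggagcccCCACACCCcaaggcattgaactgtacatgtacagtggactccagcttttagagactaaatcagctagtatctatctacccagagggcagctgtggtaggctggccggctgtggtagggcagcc

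Ocln encodes occludin (ENSMUSG00000021638.12, chromosome 13, 100496507 to 100552718, minus strand). It had a start-site peak in every list, with a fold enrichment of 2.63 in MEFs, 2.67 on day 5, 3.23 on day 10 and 3.64 in ESCs. These peaks stood at rank 45493 of 56514, 35904 of 36219, 23373 of 35226 and 12433 of 48486. The day 5 peak was among the weakest of its list and was lost when a −log10 q-value of at least 2 was required. Ocln had 5 ESC-specific regions, and none of them had a peak on an OSKM day.

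Claudin 3 and claudin 4 are neighbours on chromosome 5 (Cldn3, ENSMUSG00000070473.4, 134986214 to 134987472, plus strand; Cldn4, ENSMUSG00000047501.3, 134945119 to 134946934, minus strand). Cldn3 had the best ranked start-site peaks of the 10 genes. The fold enrichment of the MEF peak was 3.26, of day 5 4.08, of day 10 3.37 and of ESCs 4.29, at ranks 28881, 11137, 8376 and 4037 of each list. A region 14.6 to 15.5 kb after the Cldn3 start was ESC-specific with a peak at day 10. Cldn4 had a weak start-site peak in MEFs (fold enrichment 2.44), at day 10 (2.58) and in ESCs (2.26), and the nearest day 5 peak was 14017 bp away. With a −log10 q-value of at least 2, the MEF and day 10 peaks of Cldn4 were lost and the ESC peak stayed.

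Cldn7 encodes claudin 7 (ENSMUSG00000018569.12, chromosome 11, 69964779 to 69967885, plus strand). Its 1 start-site peak was in ESCs, from 1.9 to 2.4 kb, over an internal start, with a fold enrichment of 2.72 at rank 45305 of 48486. MEFs, day 5 and day 10 had no peak within 13069 bp of a Cldn7 start. The Cldn7 window is dense in other genes, and 9 of its 10 regions lay over the start site of a neighbour such as Eif5a, Slc2a4 or Phf23. Its 9 MEF, 7 day 5, 8 day 10 and 8 ESC peaks therefore mostly describe those neighbours.

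The keratin pair lies head to head on chromosome 15 (Krt8, ENSMUSG00000049382.10, 101996698 to 102004482, minus strand; Krt18, ENSMUSG00000023043.7, 102028180 to 102032027, plus strand). Krt18 had a start-site peak in ESCs only, with a fold enrichment of 2.92 at rank 40012 of 48486, and the nearest peaks were 2085 bp away in MEFs, 24079 bp at day 5 and 22682 bp at day 10. Krt8 had no start-site peak in any list. Peaks lay to either side of the start instead. Before the start, at -1.0 to -0.5 kb, MEFs and day 10 had peaks, which ranked 55572 of 56514 and 29810 of 35226. Inside the first 1.5 kb of the gene, in an intron, a region at 0.9 to 1.5 kb had a peak at day 5, day 10 and in ESCs and none in MEFs.

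The Krt8 intron peak had a fold enrichment of 3.10 at day 5, 3.39 at day 10 and 2.97 in ESCs, at rank 20675 of 36219, 11414 of 35226 and 37843 of 48486. Together with the intron region of Cdh1, it was 1 of the 2 regions of the 87 (2.30%) with a peak in these 3 lists and none in MEFs, a share close to the 2.22% in the windows of all genes. The 200 bp around the middle of the stretch under all 3 peaks are chr15:102003091-102003290, read on the minus strand as Krt8 is. They hold 1 KLF-type match, in capitals, and are shown because this was the earliest gain at the keratin pair.
Krt8 intron region: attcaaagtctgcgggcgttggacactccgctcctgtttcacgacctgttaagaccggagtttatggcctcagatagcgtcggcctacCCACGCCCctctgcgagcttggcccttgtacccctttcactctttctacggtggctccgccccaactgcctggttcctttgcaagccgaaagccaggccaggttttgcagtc
Another 2 ESC-specific regions, at -9.6 to -9.0 kb from the Krt8 start and at -10.9 to -10.0 kb from the Krt18 start, were listed in ESCs alone. Day 10 alone had a peak 8.3 kb after the Krt8 start, with a fold enrichment of 2.85.

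Esrp1, the splicing regulator (ENSMUSG00000040728.15, chromosome 4, 11331933 to 11386783, minus strand), had the fewest peaks, 2 in each list except ESCs, which had 3. No peak lay over its start sites, but each list had a peak shortly before them. The gap was 736 bp in MEFs, 826 bp on day 5, 561 bp on day 10 and 763 bp in ESCs, and the peaks had a fold enrichment of 3.02, 3.48, 3.35 and 2.84. The same upstream region was thus listed in fibroblasts, OSKM cells and ESCs. Its 1 ESC-specific region, 20.7 to 22.0 kb into the gene, had a fold enrichment of 2.58 at rank 47846 of 48486.

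Grhl2, the transcription factor (ENSMUSG00000022286.16, chromosome 15, 37233036 to 37363569, plus strand), had a start-site peak in ESCs, with a fold enrichment of 2.69 at rank 44329 of 48486. The ESC peak ran from -0.9 to 0.2 kb. MEFs and day 10 had peaks over the same upstream stretch, with a fold enrichment of 2.91 and 2.77, which ended 433 bp and 307 bp before the start, and the nearest day 5 peak was 17355 bp away. Within 500 bp, Grhl2 was therefore called in MEFs, at day 10 and in ESCs, and it no longer counted as gained. MEFs alone had peaks at -37.1, -32.4 and 172.7 kb, and MEFs and ESCs shared a region at -17.8 kb. The remaining regions of the window had no MEF peak. ESCs alone had a peak 5.3 to 5.9 kb into the gene with a fold enrichment of 4.25, and another at 168.2 kb. A region 153.2 to 153.8 kb after the start, inside Ncald, had a peak at day 10 (3.60) and in ESCs (5.04). OSKM cells also had transient peaks at 84.6 kb, at day 5, and at 138.8 kb, on both days.

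The strength of the start-site peaks was then set against all genes. The 10 genes had 18 start-site peaks over the 4 lists, and 14 of them (77.8%) fell in the lower-scoring 50% of their list. The median rank as a percent of list length, in the order MEFs, day 5, day 10 and ESCs, came to 74.9, 82.8, 75.5 and 78.0, against 16.5, 29.2, 20.6 and 25.0 for all protein-coding genes with a start-site peak. For the other epithelial genes the median was 45.4, 47.3, 41.8 and 39.2. Start-site peaks of these 10 genes were thus mostly among the weaker ones of their lists. The other 4 were those of Cldn3 at day 5, day 10 and in ESCs and that of Ocln in ESCs. With a −log10 q-value of at least 2, 3, 2, 3 and 5 genes had one in the same order. Cldn7 and Grhl2 then had none in any list. The genes without one in MEFs and with one in ESCs were then Cdh1, Cldn4 and Krt18. When each list was reduced to its 35226 highest-scoring peaks, Cldn7, Krt18 and Grhl2 had no start-site peak in any list, while Cdh1 kept its peaks at day 5 and in ESCs. The strongest peaks of the windows stood at other genes, such as that of Tango6 beside Cdh1, at rank 128 of 56514 in MEFs, and that of Abhd11 beside Cldn3, at rank 288.

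The windows as a whole were counted next. The 10 windows had 56 MEF, 35 day 5, 43 day 10 and 57 ESC peaks, with shared peaks counted once. The median per gene was 8, 3.5, 5.5 and 7.5, and the median of all protein-coding genes was 5, 3, 3 and 4. The day 5 count was the lowest or tied for the lowest in 9 of the 10 genes, Cdh1 being the exception with 6 at day 5 and 5 at day 10. The lists of both OSKM days were also the shortest. With equal list lengths the counts were 33, 33, 43 and 37, so that day 10 was highest. Only the day 10 list, the shortest, was left whole in this step.

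**Figure D3:**
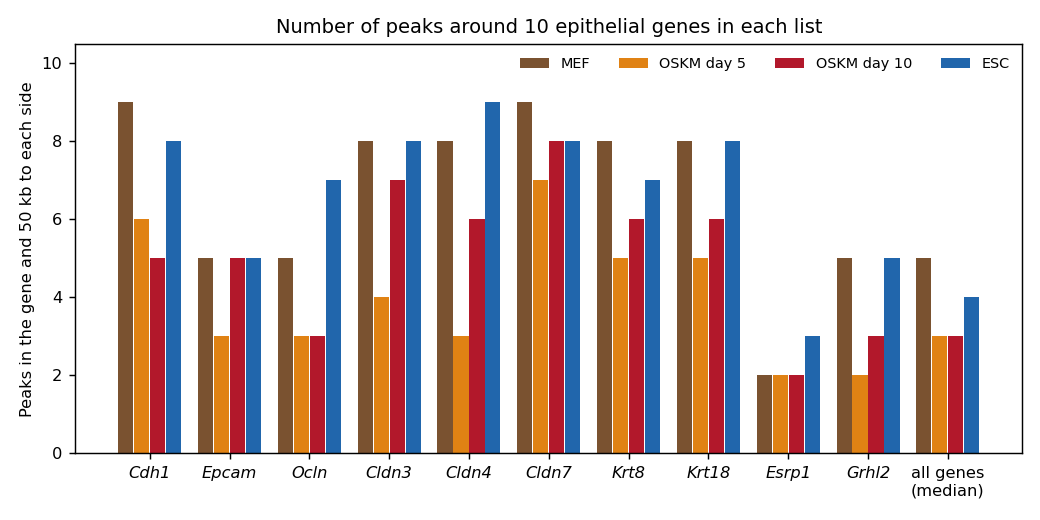
Number of peaks in the gene and 50 kb to each side for each of the 10 genes in MEFs, OSKM day 5, OSKM day 10 and ESCs, beside the median of all protein-coding genes. Counts run from 2 at Esrp1 to 9 at Cdh1, Cldn4 and Cldn7, and both OSKM lists tend to lie below MEFs and ESCs, as they do for all genes.

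Of the 87 regions, 31 were common (35.6%, exact 95% binomial interval 25.6% to 46.6%), 26 ESC-specific (29.9%, 20.5% to 40.6%), 25 MEF-specific (28.7%, 19.5% to 39.4%) and 5 transient (5.75%, 1.89% to 12.9%). Among the regions in the windows of all protein-coding genes, the shares were 22.9%, 27.9%, 35.1% and 14.1%. The intervals cover counting error only, and regions of 1 window are not independent. Start sites of other genes moved with the common class, in that 15 of the 31 common regions and none of the ESC-specific ones lay over one. Among the 62 regions over no start site, 11 (17.7%) were common and 5 (8.06%) transient, against 10.4% and 16.7% in the windows of all genes. The low transient share did not hold with equal list lengths. There 14 of 64 regions were transient (21.9%) and 20 common (31.2%), against 23.5% and 21.1% in the windows of all genes.

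All 10 genes had an ESC-specific region in their window, as did 75.8% of all genes, and 9 of 10, all but Esrp1, had a MEF-specific one (75.1% of all genes). Fibroblasts were thus not without accessible sites around these genes, as around most genes. The 10 genes with an ESC-specific region fell to 8 with a −log10 q-value of at least 2. They fell to 7 with equal list lengths and to 7 with a window of 10 kb. A transient region lay near 5 genes, Epcam, Ocln, Krt8, Krt18 and Grhl2 (47.8% of all genes), with 1 region shared by the keratin pair. The transient count was close to its background. With only 10 genes, and pairs that share windows, the ESC-specific and MEF-specific counts do not show a difference from theirs.

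**Figure D4:**
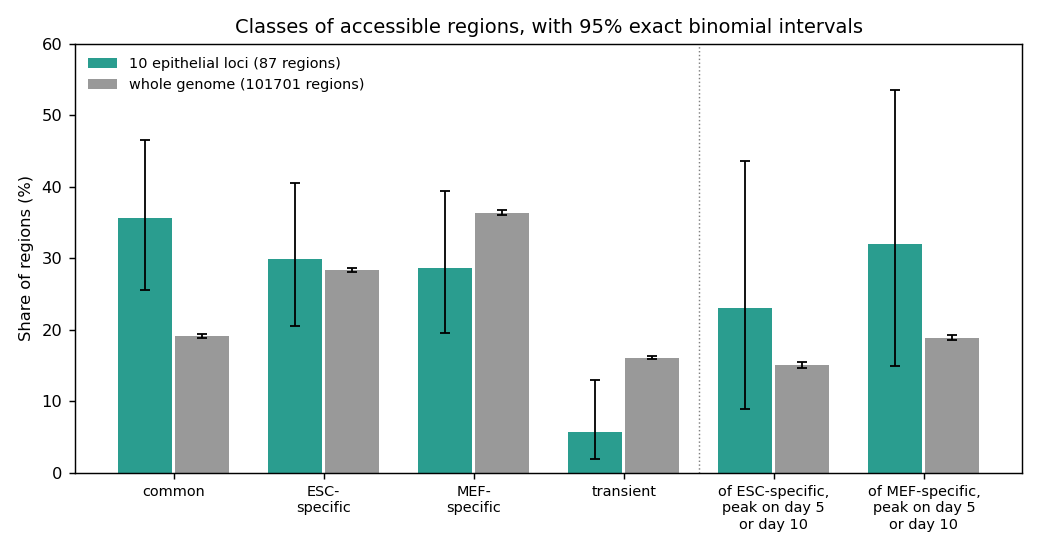
Share in percent of accessible regions in each class for the 10 loci (87 regions) and for all 101701 regions, and on the right the share of ESC-specific and of MEF-specific regions with a peak at day 5 or day 10, where error bars are exact 95% binomial intervals that cover counting error only. Common regions make up 35.6% at the 10 loci and 19.1% of all regions, transient regions 5.75% and 16.1% (21.9% and 25.9% with equal list lengths), and the intervals of the ESC-specific shares overlap.

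The order of opening was read from the first list in which a region had a peak, among the 57 regions with an ESC peak. In 31 of them (54.4%) the first list was MEFs, in 4 (7.02%) day 5, in 2 (3.51%) day 10 and in 20 (35.1%) ESCs. In the windows of all protein-coding genes the shares were 45.1%, 5.68%, 2.64% and 46.6% of 40622 regions with an ESC peak. The share first listed in MEFs had an interval of 40.7% to 67.6%, which holds 45.1%, and that first listed in ESCs 22.9% to 48.9%, which holds 46.6%. Of the 26 ESC-specific regions, 6 (23.1%, 8.97% to 43.6%) had a peak at day 5 or day 10, and the share in the windows of all genes was 15.2%, inside that interval. These 6 regions lay near 5 genes, Cdh1, Cldn3, Krt8, Krt18 and Grhl2, where 24.8% of all genes had such a region. The keratin pair shares 1 of them, and 3 of the 6 are at Cdh1. The OSKM lists were the shortest, so fewer regions could be first listed on those days. With equal list lengths the ESC-specific class had 17 regions, and 41.2% of them were listed on an OSKM day. Under the stricter rule on how much of the widest peak a list must cover, the class had 31 regions. The share listed on an OSKM day was then 12.9%. Both shares are inside the interval of 8.97% to 43.6%, but that interval came from the 26 regions of the full lists. The share for all genes was not computed at those lengths or under that rule, so neither share can be set against the 15.2%.

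By this reading, day 5 came first at Cdh1 (the start site and the intron regions at 28.2 and 41.0 kb) and at the Krt8 intron. In the Cdh1 region at 28.2 kb, however, the day 5 and ESC peaks share no base and are joined only by the day 10 peak. Day 10 came first 14.6 kb after Cldn3 and inside Ncald after Grhl2. The start sites of Cldn7, Krt18 and Grhl2 had their first peak in ESCs. Those of Cldn7 and Grhl2 lost it when a −log10 q-value of at least 2 was required. Epcam, Ocln, Cldn4, Cldn7 and Esrp1 had ESC-specific regions and none of these had an earlier OSKM peak. Of the 25 MEF-specific regions, 3 (12.0%) still had a peak at day 5 and 8 (32.0%, 14.9% to 53.5%) at day 10, against 15.0% and 16.5% in the windows of all genes. The lists name the sites present in a bulk sample, so fewer cells with an open site and a less open site in each cell cannot be told apart.

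Motifs in the regions were counted in 200 bp around the middle of the widest peak. KLF-type letters occurred in 13 of the 87 regions (14.9%), against 8.36% of all regions. By class, they occurred in 5 of 25 MEF-specific regions, where all regions of that class gave 5.99%. Among common regions they occurred in 5 of 31 (16.1%) against 11.7%, and among ESC-specific regions in 2 of 26 (7.69%) against 8.84%. The ESC-specific regions thus showed no excess of these letters. CACCTG occurred in 14.9% of the 87 regions against 11.9% of all, and among the MEF-specific regions in 1 of 25 (4.00%) against 7.52%. The AP-1 letters TGANTCA occurred in 7 of 25 MEF-specific regions (28.0%) and 2 of 26 ESC-specific regions (7.69%), where all regions of these classes gave 29.4% and 6.44%. The regions near the 10 genes thus split by AP-1 letters much as the regions of the whole genome did. No region near the 10 genes held AACCNGTT or ATGCAAAT, which 1.46% and 2.19% of all regions held.

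Other genes of epithelial cells were described from a list of 46 junction, keratin, adhesion and regulator genes. Of these, 20 had a start-site peak in MEFs, 14 on day 5, 25 on day 10 and 17 in ESCs. In that order the shares were 43.5%, 30.4%, 54.3% and 37.0%, against 58.6%, 50.6%, 54.7% and 53.8% of all genes. In all 4 lists 11 of the 46 had one (23.9%, against 45.2% of all genes). Tjp1 and Cgn, which link tight junctions to the cell cortex, and the desmosome genes Jup, Perp and Pkp1 had one in all 4 lists (genes outside the naming rule, picked after their values were seen). Another 5 genes had none in MEFs and one in ESCs, among them Elf3, an epithelial transcription factor, Marveld2 and Marveld3 of the tight junction, and Ovol2, a repressor of the mesenchymal state. That was 10.9%, against 40.0% of the 10 genes and 3.32% of all genes. A further 16 (34.8%, close to the 36.9% of all genes) had none in any list, among them, again picked after the values were seen, the desmosome genes Dsp and Pkp3, the keratins Krt5 and Krt14, and Trp63, the master regulator of stratified epithelia.

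The share with a start-site peak at day 10, 54.3%, was close to the 54.7% of all genes. Of the 46 genes, 8 had none in MEFs and one at day 10 (17.4%, against 1.74% of all genes), and 0 had none in MEFs and one at day 5 (0.883% of all genes). With equal list lengths these were 10 genes (21.7%, against 3.61%) and 2 genes (4.35%, against 1.97%). At those lengths 3 of the 10 genes described above (30.0%) also had none in MEFs and one at day 10. They were Epcam and Cldn4, listed at day 10 only, and Ocln, also listed in ESCs. The day 10 list, the shortest, lost no peak in this step, whereas the MEF start-site peaks of these genes were cut. The fold enrichment of the cut MEF peak was 3.04 at Epcam, 2.44 at Cldn4 and 2.63 at Ocln. At day 10 it was 2.64, 2.58 and 3.23. With the full lists, the start-site peak of Cdh3, Cldn9, Ehf, Itgb4 and Lsr was listed at day 10 only. That was 10.9% of the 46, against 0.636% of all genes and 0 of the 10 genes. Of the 8 genes, Elf3 and Marveld2 were among those also listed in ESCs. This pattern was picked out after the values were seen. The day 10 peaks of Elf3 and Lsr were strong, with a fold enrichment of 4.77 and 4.26 at rank 3065 and 3957 of 35226. The others ranked from 20730 to 33757. MEFs had a peak within 500 bp of the start for 5 of the 8 genes and day 5 for 3 of them, so that the call depends there on where a peak ends.

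Of 14 mesenchymal genes, 14 had a start-site peak in MEFs, 10 on day 5, 9 on day 10 and 7 in ESCs. In that order the shares were 100%, 71.4%, 64.3% and 50.0%, against 58.6%, 50.6%, 54.7% and 53.8% of all genes. Col1a1, Postn and Thy1 had none from day 5 on, and Prrx1 and Twist2 had none from day 10 on. Pdgfrb had one on both OSKM days and Col3a1 at day 10 but not day 5, and neither had one in ESCs. Snai1, Snai2, Twist1 and Zeb2, whose products repress epithelial genes, had a start-site peak in all 4 lists, and they too were picked after the values were seen. Of the 14 genes 7 had one in all 4 lists (50.0%, close to the 45.2% of all genes). Of 10 naive pluripotency genes, 5, 2, 3 and 7 had a start-site peak in the same order of lists, and Dppa4, Nanog and Zfp42 had none before ESCs.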

How the data were processed

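ATAC-seq was made in 8 libraries of 4 groups. The authors, per the labels and their methods, mapped reads to mm10 with bowtie2 (version 2.2.0 in the submitters' processing notes) in very sensitive mode, dropped reads of low mapping quality, for which labels and methods give different thresholds, and kept reads with a single location. The peak caller and any shift for the transposase are not given in the sources used here. The authors deposited 1 interval list per group, and a row gives a score, the fold enrichment as a ratio to background, and −log10 p- and q-values, of which the −log10 p-value was not used. The deposited lists carry replicate 1 peak names and have intersect in their names. An interval may hence be where peaks of both replicates overlapped, though no source states it. Score and fold enrichment may then belong to the whole peak, and they were used to describe and rank peaks within a list. Depth is unknown, and 0 columns belonged to other series.

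Groups were taken from the sample titles. Start sites and exons came from GENCODE mouse release 21 (GRCm38), whose 21 chromosomes hold every peak. A peak counted for a gene when it overlapped the gene body or 50 kb to each side by at least 1 bp, and for a start site when it covered that base. Peaks within 400 bp were merged. The members and gene lists were chosen with earlier results of these data known, all 10 members are described, and of the other lists genes with a start-site peak in ESCs and not MEFs (mesenchymal genes: the reverse) were named, with exceptions said where they stand. No test was made, since each group has 1 list, and intervals are exact (Clopper-Pearson) at 95%. The overlap code was tested on simulated data. Python 3.11.15, numpy 2.4.6, scipy 1.17.1 and matplotlib 3.10.9 were used. The alternatives were other start sites, windows, merging rules, a −log10 q-value of at least 2 and equal list lengths. Some genes of the comparison lists were counted but are not reported by name here.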

Additional observations from a re-analysis of the deposited data

How the results depend on the processing

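No paired analysis was possible because each group has 1 list for both libraries, and for the same reason leaving out a library was not run. Of 82 values under 9 alternatives, 61 stayed within 1.5 times of the reported count, or for a share within its interval, and 21 moved further. Start sites of all transcripts, a margin of 500 bp, a −log10 q-value of at least 2 and merging of overlapping peaks alone moved none of the values beyond these limits. The margin of 500 bp together with that q-value, chosen after seeing the data, moved none beyond them either. Calls of single genes did change within these limits. With that q-value alone, Cldn7 and Grhl2 no longer counted as gained between MEFs and ESCs, and Cldn4 did.

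Equal list lengths moved most. The 35226 highest-scoring peaks of each list left 1 gene with a start-site peak in MEFs and 3 in ESCs, with 2 genes gained between MEFs and ESCs, both with a peak on an OSKM day. The windows then held 33 MEF and 37 ESC peaks, in 13 MEF-specific, 17 ESC-specific, 20 common and 14 transient regions. Shares of all genes at equal list lengths were added after seeing the data. A window of 10 kb gave 17 MEF, 11 day 5, 14 day 10 and 22 ESC peaks, in 7 MEF-specific, 12 ESC-specific, 10 common and 3 transient regions. A window of 100 kb gave 85 MEF peaks and 40 MEF-specific regions. Counting a list only where its peaks covered at least 50% of the widest peak lowered the common regions to 17. Under that rule the share of ESC-specific regions with a peak on an OSKM day fell from 23.1% to 12.9%, within its interval. These moves follow from fewer peaks, from windows of another size or from a stricter rule. Unknown depth limits each absent peak.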
